A study of Rattus norvegicus with 14 samples.

Results

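Neuroligins, neurexins and leucine-rich repeat transmembrane proteins (Lrrtm) form adhesion contacts across the synaptic cleft. Presynaptic neurexins bind the neuroligins and Lrrtm proteins of the postsynaptic membrane, and these in turn are linked to scaffold proteins and receptors. Nlgn1 is best known from excitatory synapses, Nlgn2 from inhibitory synapses, and Nlgn3 from both, while Lrrtm proteins are known mainly from excitatory synapses. In the hippocampus, work in rodents has tied these genes to synapse organisation and to long-term potentiation.

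The genes described were chosen by name: Nlgn1, Nlgn2, Nlgn3, Nrxn2, Nrxn3, Lrrtm1, Lrrtm2, Lrrtm3 and Lrrtm4. Of these 9 genes, 8 had a row among the 22601 genes listed, and Lrrtm1 was not analysed here. All 8 passed the filter on low values, as did 12744 genes in total. Their levels were measured by RNA sequencing of hippocampal tissue from wild-type Wistar rats of 180 to 220 g. The groups were rats of the pentylenetetrazole seizure model given Q808 (PTZ + Q808, n = 5, written PTZ+Q808), rats of the same model given vehicle (PTZ, n = 5), and rats given vehicle alone (control, n = 4). Pentylenetetrazole (PTZ) is a convulsant that blocks GABA-A receptors, and Q808 is known here only by that code name. Dose, sampling time, age and sex are not stated in the labels. Y-linked transcripts were present in 3 of 5 PTZ+Q808, 3 of 5 PTZ and 2 of 4 control libraries. PTZ differed from control by the convulsant, and PTZ+Q808 from PTZ by the compound, whereas PTZ+Q808 differed from control by both.

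Each library held 15332472 to 18544147 fragments assigned to genes. The tissue label was checked against hippocampal markers: Prox1, of dentate granule cells, was 4.26 to 12.1 FPKM (fragments per kilobase, scaled to the library total) over the PTZ+Q808 libraries, 5.54 to 11.3 over the PTZ libraries and 7.07 to 10.99 over the control libraries, and Wfs1, of CA1 pyramidal cells, was at least 97.3 FPKM in every library. Of 9 listed markers of hippocampal principal cells, 7 passed the filter on low values and 2 were under 1 FPKM in every library. A few libraries stood apart. Ttr, which marks choroid plexus, stood at 329 FPKM in PTZ+Q808 replicate 1, 113 FPKM in PTZ replicate 2 and 54.5 FPKM in control replicate 3, against 1315 to 7125 FPKM in the other 11 libraries. PTZ+Q808 replicate 3 held the pituitary transcript Prl at 395 FPKM, against at most 0.898 FPKM elsewhere. Control replicate 2 held the striatal transcript Drd2 at 29.4 FPKM, against at most 2.43 FPKM elsewhere. Results that rest on these libraries are given with and without them below. In tissue of this kind, a change in the number of cells of a type and a change in the RNA per cell cannot be told apart.

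The 250 bases before the start of Nlgn1, Lrrtm3 and Lrrtm2 are shown because these genes had the largest increases of the set in PTZ+Q808 versus control. The sequences are from RefSeq (GRCr8, the build of that table and not necessarily of the counting), which held 6 of the 8 genes. They run 5′ to 3′ on the strand of the gene, with capitals marking matches to the cAMP response element.
Nlgn1, chr2:110930677-110930926, minus strand: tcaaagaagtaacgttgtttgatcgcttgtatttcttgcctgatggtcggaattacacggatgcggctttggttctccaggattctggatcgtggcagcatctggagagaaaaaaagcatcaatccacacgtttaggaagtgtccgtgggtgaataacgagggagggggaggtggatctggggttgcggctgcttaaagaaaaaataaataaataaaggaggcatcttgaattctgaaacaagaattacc
Lrrtm3, chr20:24514054-24514303, plus strand: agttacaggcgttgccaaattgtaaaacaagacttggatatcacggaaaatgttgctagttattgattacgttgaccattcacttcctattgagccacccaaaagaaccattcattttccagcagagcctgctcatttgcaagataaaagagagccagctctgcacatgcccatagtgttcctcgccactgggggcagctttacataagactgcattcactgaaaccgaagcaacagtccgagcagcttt
Lrrtm2, chr18:27096968-27097217, minus strand: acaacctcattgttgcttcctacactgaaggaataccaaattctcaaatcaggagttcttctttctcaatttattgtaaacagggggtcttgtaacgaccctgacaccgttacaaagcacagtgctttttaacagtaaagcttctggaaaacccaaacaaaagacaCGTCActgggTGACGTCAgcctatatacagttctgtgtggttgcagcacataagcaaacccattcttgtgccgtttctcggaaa

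A search of both strands covered 5 motifs: the full cAMP response element TGACGTCA, its core TGACG, the AP-1 site TGANTCA, the Egr site GCGTGGGCG and the E-box CACGTG. Lrrtm2 held the full cAMP response element 74 to 67 bases before its start, which by its letters also contains the core on both strands, and a further core on the other strand 84 to 80 bases before the start. Over 33469 promoter windows of this length, 1.59% held the full element and 18.2% the core, and over the 11485 windows of tested genes these shares were 2.71% and 26.8%. Lrrtm4 held an AP-1 site (TGAGTCA) 85 to 79 bases before its start, as did 6.34% of all windows and 4.23% of those of tested genes with any form of that motif. In the windows of Nlgn1, Nlgn2, Nlgn3 and Lrrtm3 none of the 5 motifs was found. The Egr site and the E-box, found in 0.478% and 5.59% of all windows and in 0.993% and 7.94% of those of tested genes, were in none of the 6. Base composition divided the windows differently: G and C made up 69.2% of the Nlgn2 window and 60.0% of the Nlgn3 window, against 44.4% for Nlgn1, 44.8% for Lrrtm3, 42.4% for Lrrtm2 and 47.6% for Lrrtm4, with a median of 51.2% over all windows.

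**Figure D1:**
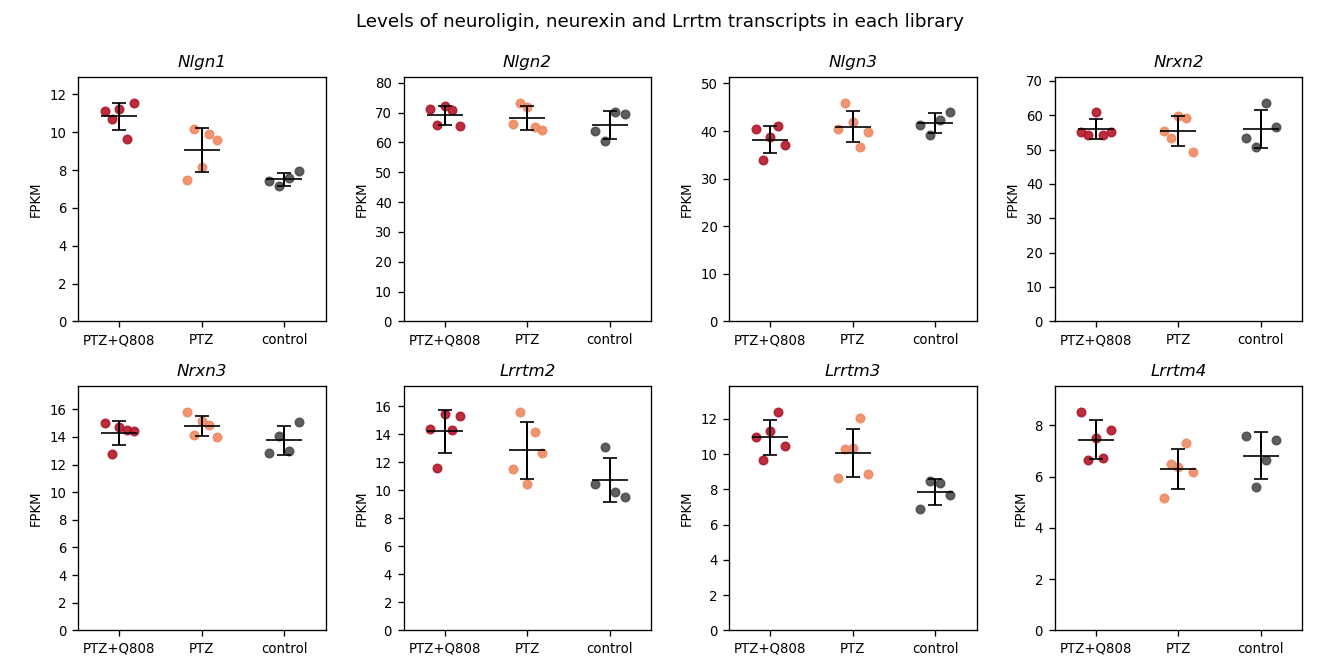
Level of each gene in FPKM (vertical axes from 0) in the PTZ+Q808 (n = 5), PTZ (n = 5) and control (n = 4) libraries; points are libraries, bars are the group mean and SD. For Nlgn1 and Lrrtm3 every PTZ+Q808 library lies above every control library, while the groups overlap for the other 6 genes.

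Per kilobase, the 8 genes covered about an order of magnitude. The mean over the 14 libraries was 67.9 FPKM for Nlgn2, 55.8 for Nrxn2, 40.2 for Nlgn3, 14.3 for Nrxn3, 12.7 for Lrrtm2, 9.73 for Lrrtm3, 9.26 for Nlgn1 and 6.85 for Lrrtm4. Nlgn2 was above Nrxn2, Nrxn2 above Nlgn3, Nlgn3 above Nrxn3 and Lrrtm2 above Lrrtm3 in 14 of 14 libraries. Other neighbours in the order were not apart in this way: Nrxn3 exceeded Lrrtm2 in 11 of 14 libraries, Lrrtm3 exceeded Nlgn1 in 8 and Nlgn1 exceeded Lrrtm4 in 13. Nlgn2 stood at the 91.2 percentile of tested genes and Lrrtm4 at the 40.2 percentile. The least covered value rested on 472 fragments (Lrrtm3). The counting error of single values was 1.10% to 4.60%, against a coefficient of variation of 4.58% to 15.8% within groups, and the ratio of spread to counting error was lowest, at 1.45, for Nlgn1 in control.

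Among the neuroligins, Nlgn1, the form best known from excitatory synapses, was higher after PTZ+Q808 than in control, and Nlgn2 and Nlgn3 did not pass the test. Nlgn1 was at 11.1, 10.7, 11.2, 9.67 and 11.5 FPKM in the 5 PTZ+Q808 libraries, 7.46, 10.1, 8.18, 9.90 and 9.60 FPKM in the 5 PTZ libraries, and 7.43, 7.14, 7.58 and 7.96 FPKM in the 4 control libraries. All PTZ+Q808 libraries lay above all control libraries. Of the PTZ libraries, 1 of 5 was inside the control range, and those at 9.90 and 10.1 FPKM were inside the PTZ+Q808 range. The group means were 10.8 ± 0.724 FPKM for PTZ+Q808, 9.06 ± 1.18 FPKM for PTZ and 7.53 ± 0.345 FPKM for control (SD). Against control, Nlgn1 rose by 0.47 ± 0.08 on the log2(FPKM + 1) scale (SE, 95% interval 0.30 to 0.65), which is 1.44 times the control mean in FPKM, with an adjusted p of 0.0199 in limma. An exact permutation test of the same difference over the 9 libraries, two-sided, gave p = 0.00794, the smallest value it can give with 4 against 5.

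The size of the Nlgn1 difference between PTZ+Q808 and control changed little with the choice of libraries, while its call did not hold throughout. Over the alternatives tried the log2 difference was 0.44 to 0.54. Without PTZ+Q808 replicate 1 the adjusted p was 0.0543, without PTZ+Q808 replicate 5 it was 0.0525, without control replicate 1 it was 0.0717 and without control replicate 3 it was 0.0508. Without the 3 libraries low in Ttr the difference was 0.47 with an adjusted p of 0.145, and without the 2 libraries holding striatal or pituitary transcripts it was 0.44 with an adjusted p of 0.0685. In those subsets the number of genes called in the whole table also fell, to 0 and to 57, against 366 with all libraries.

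The PTZ mean of Nlgn1 stood between the means of the other groups, and neither neighbouring comparison was called. PTZ against control gave a log2 difference of 0.23 ± 0.08 (95% interval 0.05 to 0.41, adjusted p = 0.514), with 4 of 5 PTZ libraries above every control library and an exact permutation p of 0.0635. PTZ+Q808 against PTZ gave 0.24 ± 0.08 (95% interval 0.07 to 0.41, adjusted p = 0.76), with 4 of 5 PTZ+Q808 libraries above every PTZ library and an exact permutation p of 0.0238 before any adjustment. The 3 comparisons share libraries, so these values are not independent of each other.

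Nlgn2, the neuroligin best known from GABAergic synapses, was at 71.2, 65.7, 72.2, 71.0 and 65.5 FPKM in PTZ+Q808, 66.1, 73.1, 71.8, 65.2 and 64.3 FPKM in PTZ, and 63.7, 60.5, 70.2 and 69.6 FPKM in control. The ranges of the 3 groups overlapped, with 3 of 5 PTZ+Q808 libraries above every control library. The log2 difference between PTZ+Q808 and control was 0.07 (95% interval -0.06 to 0.19, adjusted p = 0.559). Nlgn2 was 0.05 higher in PTZ than in control (95% interval -0.08 to 0.17, adjusted p = 0.864), and 0.02 higher in PTZ+Q808 than in PTZ (95% interval -0.10 to 0.14, adjusted p = 0.967).

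Nlgn3, found at excitatory and inhibitory synapses, was at 40.3, 33.9, 38.6, 41.0 and 37.1 FPKM in PTZ+Q808, 40.4, 45.8, 41.8, 36.7 and 39.9 FPKM in PTZ, and 41.3, 39.1, 42.4 and 43.9 FPKM in control. Every PTZ+Q808 library was below the control mean of 41.7 FPKM, and 3 of 5 were below every control library. The difference did not pass the test: it was -0.12 on the log2 scale (95% interval -0.27 to 0.02, adjusted p = 0.316; exact permutation p = 0.0794). PTZ against control differed by -0.03 (95% interval -0.17 to 0.12), and PTZ+Q808 against PTZ by -0.10 (95% interval -0.23 to 0.04).

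The summed FPKM of the 3 neuroligins was 118 ± 5.59 in PTZ+Q808, 118 ± 7.25 in PTZ and 115 ± 6.90 in control (SD), so its groups lay close together. Within that sum Nlgn1 made up 9.20% ± 0.811 in PTZ+Q808, 7.68% ± 1.03 in PTZ and 6.54% ± 0.159 in control. The lowest PTZ+Q808 share of Nlgn1 was 7.95% and the highest control share was 6.68%. Nlgn3 made up 32.3% ± 1.14 in PTZ+Q808, 34.6% ± 1.11 in PTZ and 36.2% ± 0.672 in control, and the highest PTZ+Q808 share, 33.7%, was below the lowest control share, 35.3%. Nlgn2 was the most abundant form per kilobase, at 58.5% ± 0.870 in PTZ+Q808, 57.7% ± 1.06 in PTZ and 57.3% ± 0.825 in control. These shares are descriptions and were not tested. A share within a sum moves when any of its 3 parts moves.

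**Figure D2:**
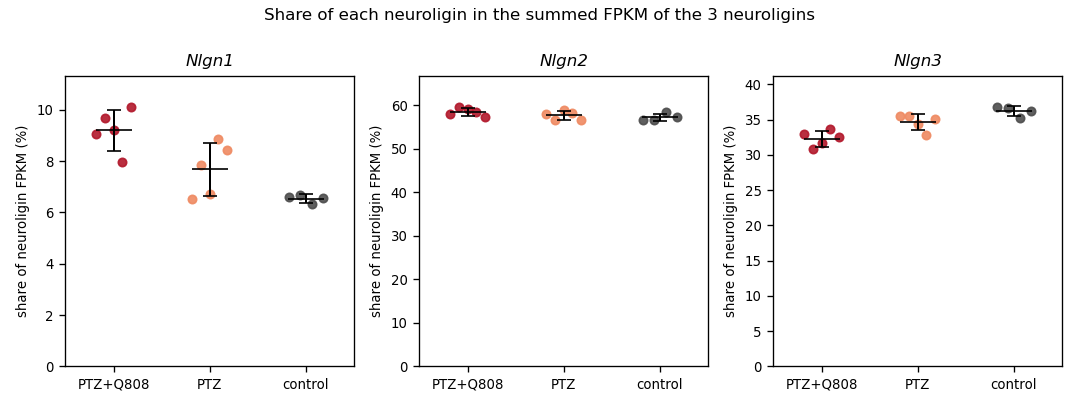
Share of Nlgn1, Nlgn2 and Nlgn3 in the summed FPKM of the 3 neuroligins (percent, vertical axes from 0) in PTZ+Q808, PTZ and control libraries; points are libraries, bars the group mean and SD. The Nlgn1 share is above 7.9% in the PTZ+Q808 libraries and below 6.7% in the control libraries.

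Nrxn2 and Nrxn3, the presynaptic receptors of the set, passed the test in none of the 3 comparisons. Each gene gives long and short forms from separate promoters, and a gene-level value does not separate them or their splice variants. Nrxn2 was at 55.2, 54.3, 61.1, 54.2 and 55.2 FPKM in PTZ+Q808, 55.5, 53.3, 59.7, 59.1 and 49.4 FPKM in PTZ, and 53.2, 50.8, 63.4 and 56.5 FPKM in control. Its means were 56.0 ± 2.86 FPKM in PTZ+Q808, 55.4 ± 4.26 FPKM in PTZ and 56.0 ± 5.48 FPKM in control. The PTZ+Q808 minus control difference was 0.00 on the log2 scale with a 95% interval of -0.15 to 0.15 (adjusted p = 0.981). It was -0.01 between PTZ and control (95% interval -0.16 to 0.14, adjusted p = 0.976) and 0.02 between PTZ+Q808 and PTZ (95% interval -0.12 to 0.16, adjusted p = 0.979). The sign of these values near 0 turned under some alternatives.

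Nrxn3 was at 15.0, 12.8, 14.7, 14.5 and 14.4 FPKM in PTZ+Q808, 15.8, 14.1, 15.2, 14.9 and 13.99 FPKM in PTZ, and 12.8, 14.1, 12.97 and 15.1 FPKM in control. The ranges overlapped in all 3 comparisons. All 5 PTZ libraries were above the control mean of 13.7 FPKM, and the PTZ minus control difference of 0.10 on the log2 scale (95% interval -0.03 to 0.23) had an adjusted p of 0.709. The difference was 0.05 between PTZ+Q808 and control (95% interval -0.08 to 0.19) and -0.05 between PTZ+Q808 and PTZ (95% interval -0.17 to 0.08).

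Among the Lrrtm genes, whose proteins are postsynaptic neurexin ligands, Lrrtm3 was higher in PTZ+Q808 than in control. Its levels were 10.9, 9.64, 11.3, 12.4 and 10.5 FPKM in PTZ+Q808, 8.67, 10.3, 10.3, 12.02 and 8.84 FPKM in PTZ, and 6.87, 8.48, 8.36 and 7.68 FPKM in control. Both PTZ+Q808 and PTZ libraries lay wholly above the control libraries. The means were 10.9 ± 1.01 FPKM in PTZ+Q808, 10.04 ± 1.36 FPKM in PTZ and 7.85 ± 0.739 FPKM in control. Against control, Lrrtm3 rose by 0.43 ± 0.09 in PTZ+Q808 (95% interval 0.23 to 0.63), 1.39 times the control mean in FPKM, with an adjusted p of 0.031 and an exact permutation p of 0.00794.

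The Lrrtm3 difference between PTZ+Q808 and control also kept its size and not its call. It was 0.38 to 0.49 over the alternatives. Without PTZ+Q808 replicate 1, 3 or 5 the adjusted p was 0.07, 0.073 and 0.0631, and without control replicate 1, 3 or 4 it was 0.0978, 0.0654 and 0.0858. Without the 3 libraries low in Ttr the difference was 0.46 with an adjusted p of 0.163, and without the 2 libraries holding striatal or pituitary transcripts it was 0.46 with an adjusted p of 0.0802. Lrrtm3 lies within the span of Ctnna3 and Lrrtm2 within that of Ctnna1 in the RefSeq table, and the sources used here do not say whether counting used the strand.

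For Lrrtm3 the PTZ minus control difference was 0.31 ± 0.09 (95% interval 0.11 to 0.52). Its adjusted p was 0.431 and the exact permutation p 0.0238, and it is not called. Between PTZ+Q808 and PTZ the difference was 0.12 (95% interval -0.07 to 0.31, adjusted p = 0.873), with the ranges overlapping.

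Lrrtm2 was at 14.4, 11.6, 15.4, 14.3 and 15.3 FPKM in PTZ+Q808, 11.5, 15.6, 10.5, 14.1 and 12.7 FPKM in PTZ, and 10.5, 13.1, 9.91 and 9.55 FPKM in control. In PTZ+Q808, 4 of 5 libraries were above every control library, and replicate 2 was inside the control range. The difference from control was 0.37 ± 0.12 on the log2 scale (95% interval 0.13 to 0.62). It missed the threshold at an adjusted p of 0.0899, with an exact permutation p of 0.0238 before adjustment. With weights per library the difference was 0.45 with an adjusted p of 0.0173. That fit gave PTZ+Q808 replicate 2 a weight of 0.482, the lowest of the 14 libraries. It called 1100 of all tested genes, against 366 as reported. PTZ against control gave 0.24 (95% interval -0.01 to 0.49, adjusted p = 0.632), and PTZ+Q808 against PTZ gave 0.14 (95% interval -0.10 to 0.37, adjusted p = 0.895).

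Lrrtm4, known in rodents from dentate granule cell synapses and as a ligand of heparan sulphate as well as of neurexins, was at 8.50, 6.65, 7.52, 6.74 and 7.81 FPKM in PTZ+Q808, 5.15, 6.50, 6.36, 7.32 and 6.17 FPKM in PTZ, and 7.58, 5.58, 6.66 and 7.43 FPKM in control. Its lowest group mean was that of PTZ, at 6.30 ± 0.779 FPKM, with 7.44 ± 0.772 FPKM in PTZ+Q808 and 6.81 ± 0.916 FPKM in control. The PTZ+Q808 minus PTZ difference was 0.21 ± 0.09 (95% interval 0.01 to 0.42) with an adjusted p of 0.778 and an exact permutation p of 0.0476. PTZ+Q808 against control differed by 0.12 (95% interval -0.10 to 0.33, adjusted p = 0.555) and PTZ against control by -0.10 (95% interval -0.31 to 0.12, adjusted p = 0.823). The summed FPKM of Lrrtm2, Lrrtm3 and Lrrtm4 was 32.6 ± 2.66 in PTZ+Q808, 29.2 ± 3.53 in PTZ and 25.4 ± 1.16 in control (SD).

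**Figure D3:**
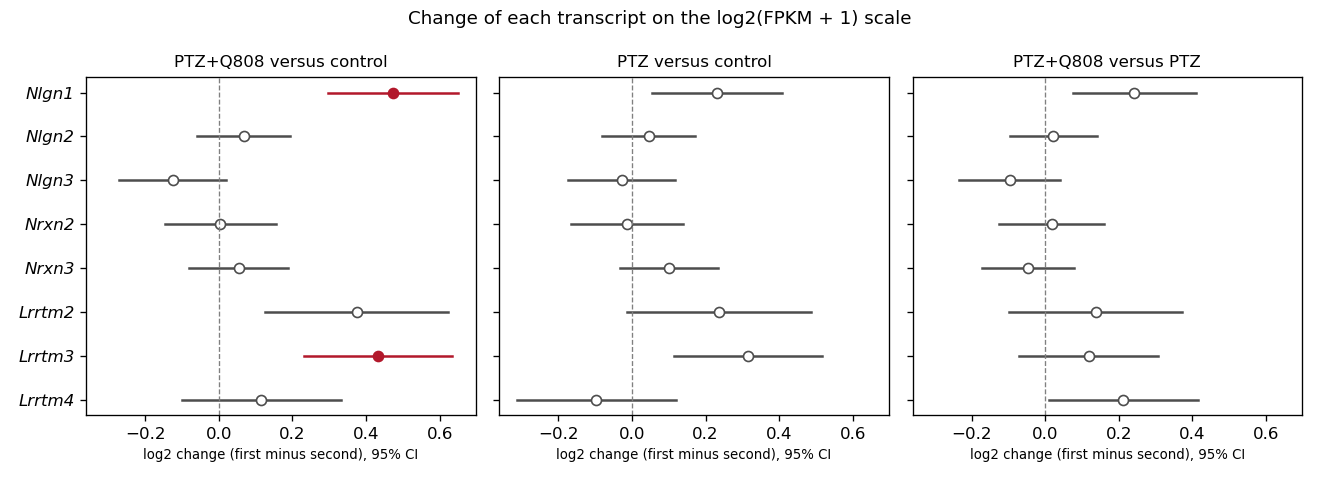
Difference between group means on the log2(FPKM + 1) scale (horizontal axis, first group minus second) for each gene in the 3 comparisons; lines are 95% intervals, and filled red points passed an adjusted p under 0.05 in limma. Nlgn1 at 0.47 and Lrrtm3 at 0.43, both in PTZ+Q808 versus control, are the filled points.

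Over the whole set, 2 of 8 genes were called in PTZ+Q808 versus control, both higher, where 2.87% of all tested genes were called (366 genes; 1.94% higher and 0.934% lower). By the overlap of the libraries, the same 2 genes were higher without overlap, against 4.75% of all genes. At an unadjusted p under 0.05 in limma there were 3 of 8 (Nlgn1, Lrrtm3 and Lrrtm2), against 20.7% of all genes. Nlgn1 ranked 32 and Lrrtm3 161 of 12744 by p. The median difference of the 8 genes was 0.09, against -0.02 over all tested genes, and 7 of 8 differences were positive. The set was chosen with earlier results of these data known, so shares of the 8 genes set against all genes are descriptions. In PTZ versus control 0 of 8 were called with limma, where 0.0314% of all genes were called. At an unadjusted p under 0.05 there were 2 of 8 (Nlgn1 and Lrrtm3), against 8.11% of all genes. Lrrtm3 was higher without overlap there, as were 1.44% of all genes, and voom on recovered fragments also called 0 of 8. PTZ+Q808 against PTZ gave 0 of 8 calls, where 0% of all genes were called, and voom called 0 of 8 as well. At an unadjusted p under 0.05 there were 2 of 8 (Nlgn1 and Lrrtm4), against 6.14% of all genes, and the libraries of the 2 groups overlapped for every one of the 8 genes, where 0.777% of all genes did not overlap.

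**Figure D4:**
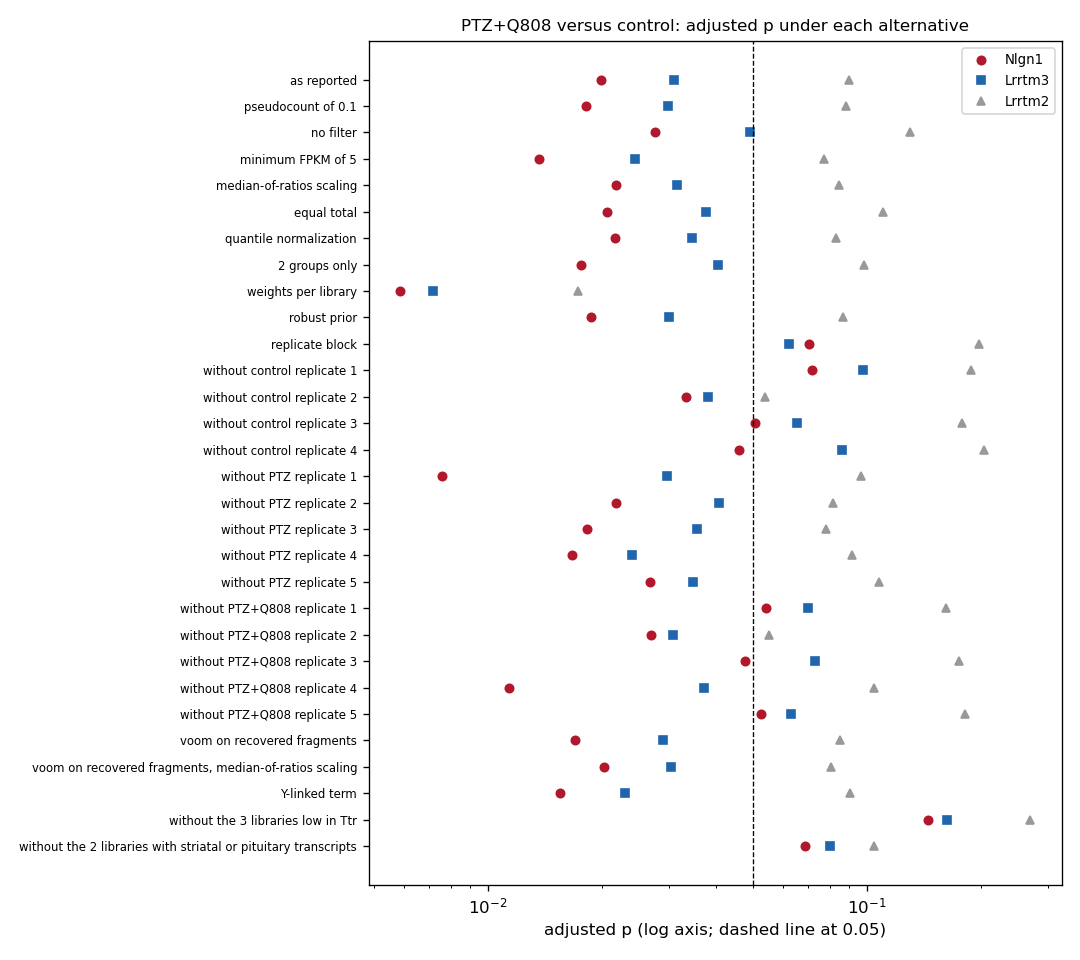
Adjusted p (horizontal log axis, dashed line at 0.05) of Nlgn1, Lrrtm3 and Lrrtm2 in PTZ+Q808 versus control under each alternative (rows). Nlgn1 is above 0.05 under 7 alternatives and Lrrtm3 under 9, most of them leaving out libraries, and Lrrtm2 is below 0.05 with weights per library alone.

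Marker levels were compared between the same groups. Summed over 7 neuronal markers, the level was 2055 to 2403 FPKM in PTZ+Q808, 1877 to 2296 FPKM in PTZ and 1801 to 2142 FPKM in control, with 0 of 7 called and a median difference of 0.10 between PTZ+Q808 and control. The 7 myelinating oligodendrocyte markers summed to 2666 to 5071 FPKM in PTZ+Q808, 3815 to 5707 FPKM in PTZ and 3652 to 7204 FPKM in control (median difference -0.38 between PTZ+Q808 and control, 0 of 7 called). The 8 meningeal and fibroblast markers summed to 86.6 to 251 FPKM in PTZ+Q808, 88.3 to 302 FPKM in PTZ and 67.5 to 140 FPKM in control (median difference 0.64, 0 of 8 called). The 10 immediate early genes, which neuronal activity is known to induce, summed to 300 to 1265 FPKM in PTZ+Q808, 337 to 1376 FPKM in PTZ and 153 to 346 FPKM in control. Of these, 3 of 10 were called in PTZ+Q808 versus control, where 2.87% of all genes were, with a median difference of 1.59. In PTZ versus control their median difference was 1.45, with 0 of 10 called. Between PTZ+Q808 and PTZ it was 0.04, also with 0 of 10 called. The part of these markers in the levels of Nlgn1 and Lrrtm3 was not tested.

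Around these genes, 5 lists of partner, adhesion, scaffold, splicing and cleavage genes held 143 names, of which 142 were found and 135 tested. Against control, 3 rose and 2 fell in PTZ+Q808, which is 3.70% and close to the background of 2.87%. Voom called 6 of 135, where it called 387 of all 12744 tested genes. Without the 3 libraries low in Ttr, none of the 5 genes called in limma kept its call (adjusted p 0.145 to 0.224). Without the 2 libraries holding striatal or pituitary transcripts, Slitrk4 kept its call (adjusted p = 0.0477). The calls of RGD1562618 (adjusted p = 0.0613), Ncam2 (0.0913), Cadm4 (0.147) and Lin7c (0.175) were lost there. Over all alternatives the log2 differences of the 5 genes kept their direction. They stayed at 0.46 to 0.62 for Slitrk4, 0.53 to 0.67 for Ncam2, 0.39 to 0.55 for Lin7c, -0.26 to -0.20 for Cadm4 and -0.27 to -0.23 for RGD1562618. In PTZ versus control and in PTZ+Q808 versus PTZ 0 of 135 were called, and voom called 0 of 135 in each. At an unadjusted p under 0.05 in limma there were 28 of 135 in PTZ+Q808 versus control, against 20.7% of all genes. There were 17 in PTZ versus control, against 8.11% of all genes, and 4 in PTZ+Q808 versus PTZ, against 6.14%.

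The 29 tested secreted and membrane partners of neurexins and neuroligins included no called gene in PTZ+Q808 versus control in limma or voom (median 0.06). At an unadjusted p under 0.05 in limma there were 2, against 20.7% of all genes. Dag1, which encodes dystroglycan, a neurexin ligand, was at 33.4 ± 2.99 FPKM in PTZ+Q808 and 38.4 ± 2.92 FPKM in control (-0.20, adjusted p = 0.198). Cbln2, a secreted linker between neurexins and delta glutamate receptors, was at 7.65 ± 2.14 FPKM in PTZ and 5.46 ± 1.37 FPKM in control (0.41, adjusted p = 0.594). Between PTZ+Q808 and PTZ the smallest p values were those of Flrt1, a latrophilin ligand (-0.16, adjusted p = 0.828), and Nxph1, a neurexin ligand (0.10, adjusted p = 0.838).

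Of 44 other synaptic adhesion genes, 2 rose and 1 fell in PTZ+Q808 versus control (6.82%, against 2.87% of all genes). Voom called 5 of 44, where it called 387 of all 12744 tested genes. At an unadjusted p under 0.05 in limma there were 17 of 44, against 20.7% of all genes. There were 8 in PTZ versus control, against 8.11%, and 2 in PTZ+Q808 versus PTZ, against 6.14%. The lists were chosen with earlier results of these data known, so these shares are descriptions. Slitrk4, of a family of postsynaptic ligands for receptor protein tyrosine phosphatases, was at 6.35, 5.66, 6.80, 6.34 and 5.45 FPKM in PTZ+Q808, 5.91, 6.42, 4.75, 5.11 and 5.25 FPKM in PTZ, and 3.52, 4.52, 3.95 and 4.09 FPKM in control. All libraries of both PTZ+Q808 and PTZ were above all control libraries. Of all genes, 4.75% were higher without overlap in PTZ+Q808 versus control and 1.44% in PTZ versus control. Slitrk4 rose by 0.50 ± 0.09 in PTZ+Q808 against control (adjusted p = 0.0199), and the PTZ minus control difference of 0.37 was not called (adjusted p = 0.318). Ncam2, an immunoglobulin-family neural adhesion molecule, was at 13.1, 9.20, 14.2, 13.1 and 11.9 FPKM in PTZ+Q808, 7.95, 11.97, 9.99, 11.7 and 10.5 FPKM in PTZ, and 7.05, 8.08, 8.86 and 7.32 FPKM in control. The PTZ+Q808 libraries were all above the control libraries, and the difference was 0.58 ± 0.12 (adjusted p = 0.03). Leaving out 1 library at a time ended the Slitrk4 call without PTZ+Q808 replicate 1, control replicate 1 or control replicate 3 (highest adjusted p = 0.0717). It ended the Ncam2 call without PTZ+Q808 replicate 1, 3 or 5 or control replicate 1, 3 or 4 (highest adjusted p = 0.0938).

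Cadm4, an adhesion molecule known mainly from contacts between axons and myelinating glia, fell to 180 ± 9.97 FPKM in PTZ+Q808, against 211 ± 7.05 FPKM in control (-0.23 ± 0.06, adjusted p = 0.0409). Its PTZ+Q808 libraries, 170 to 192 FPKM, were all below its control libraries, 203 to 219 FPKM. The share of all genes lower without overlap is not reported here. The myelinating oligodendrocyte markers above were lower in the same direction, and their part in this result was not tested. The Cadm4 call was lost in 8 of the 14 fits that left out 1 library, which were PTZ+Q808 replicate 1, 3 or 5, PTZ replicate 5 and each control (highest adjusted p = 0.101). In PTZ versus control the smallest p among the uncalled adhesion genes was that of Il1rapl1, a postsynaptic receptor-like organiser (0.39, adjusted p = 0.306). Il1rapl1 was at 1.08 to 1.58 FPKM in PTZ and 0.681 to 0.869 FPKM in control. Every control value was under the 1 FPKM of the filter. Il1rapl1 was therefore tested only through libraries of PTZ and PTZ+Q808, where it was higher, and its p is a description. For PTZ+Q808 against PTZ the smallest p was that of Lingo2, a leucine-rich repeat membrane protein (0.25, adjusted p = 0.76), followed by Il1rap (-0.32, adjusted p = 0.76). Lingo2 was at 4.87 ± 0.538 FPKM in PTZ+Q808 and 3.92 ± 0.259 FPKM in PTZ.

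Among 25 postsynaptic scaffold genes 2 had an unadjusted p under 0.05 in limma in PTZ+Q808 versus control, against 20.7% of all genes. In that comparison 1 of the 25 was called, and it fell (4.0%, against 2.87% of all genes called). This was Insyn1, listed under the symbol RGD1562618, whose protein belongs to the dystroglycan and gephyrin scaffold of inhibitory synapses. It was at 49.6, 55.6, 55.9, 53.8 and 52.8 FPKM in PTZ+Q808, 53.8, 52.3, 57.7, 54.2 and 53.4 FPKM in PTZ, and 65.8, 66.8, 62.1 and 62.0 FPKM in control. All libraries of PTZ+Q808 and of PTZ were below all control libraries, and the share of all genes for which this holds is not reported here. RGD1562618 fell by 0.26 in PTZ+Q808 against control (SE 0.05, adjusted p = 0.0215), and the PTZ minus control difference of -0.24 was not called (adjusted p = 0.215). The PTZ+Q808 call for RGD1562618 was lost without PTZ+Q808 replicate 1 or 5 or control replicate 1 (highest adjusted p = 0.0718). Homer1, a postsynaptic density scaffold with an activity-induced short form, was at 18.6 ± 3.92 FPKM in PTZ and 14.6 ± 1.36 FPKM in control (0.32, adjusted p = 0.581). The smallest p values between PTZ+Q808 and PTZ were those of Magi2 (-0.21, adjusted p = 0.801) and Gphn, which encodes gephyrin (0.07, adjusted p = 0.892).

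Among 20 presynaptic scaffold genes 5 had an unadjusted p under 0.05 in limma in PTZ+Q808 versus control, against 20.7% of all genes. Of the 20, Lin7c alone was called there (5.0%, against 2.87% of all genes). Its protein forms a complex with Cask, which binds the intracellular tail of neurexins. Lin7c was at 33.3, 25.6, 33.8, 29.1 and 37.1 FPKM in PTZ+Q808, 34.7, 33.3, 27.7, 28.6 and 27.7 FPKM in PTZ, and 21.3, 20.8, 21.5 and 28.2 FPKM in control. PTZ+Q808 replicate 2 overlapped the control range, and the difference was 0.45 ± 0.11 (adjusted p = 0.0482). The Lin7c call was lost in 10 of the 14 fits that left out 1 library, namely PTZ+Q808 replicate 1, 3 or 5, PTZ replicate 2, 3, 4 or 5 and control replicate 1, 2 or 3 (highest adjusted p = 0.128), and by voom (adjusted p = 0.0574). PTZ against control gave 0.39 ± 0.11 (adjusted p = 0.416), followed by Ppfia2, a liprin of the active zone (0.19, adjusted p = 0.594). Rimbp2 (-0.18, adjusted p = 0.811) and Ppfia4 (-0.08, adjusted p = 0.868) had the smallest p values between PTZ+Q808 and PTZ.

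Of 17 tested genes for neurexin splicing and for cleavage of neurexins or neuroligins, 0 were called in PTZ+Q808 versus control in limma or voom. An unadjusted p under 0.05 in limma was found for 2, against 20.7% of all genes. Adam10, a protease that cleaves neuroligins and neurexins, was at 14.7 ± 1.08 FPKM in PTZ+Q808, 14.2 ± 0.944 FPKM in PTZ and 12.2 ± 1.53 FPKM in control. It differed from control by 0.25 in PTZ+Q808 (adjusted p = 0.0892) and by 0.21 in PTZ (adjusted p = 0.563). Psen2, a gamma-secretase subunit, differed from control by -0.16 in PTZ+Q808 (adjusted p = 0.203) and by -0.10 in PTZ (adjusted p = 0.724). In PTZ+Q808 versus PTZ the smallest p values were those of Mmp24 (-0.19, adjusted p = 0.776) and of Khdrbs2, a splicing factor of neurexin transcripts (0.18, adjusted p = 0.828).

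**Figure D5:**
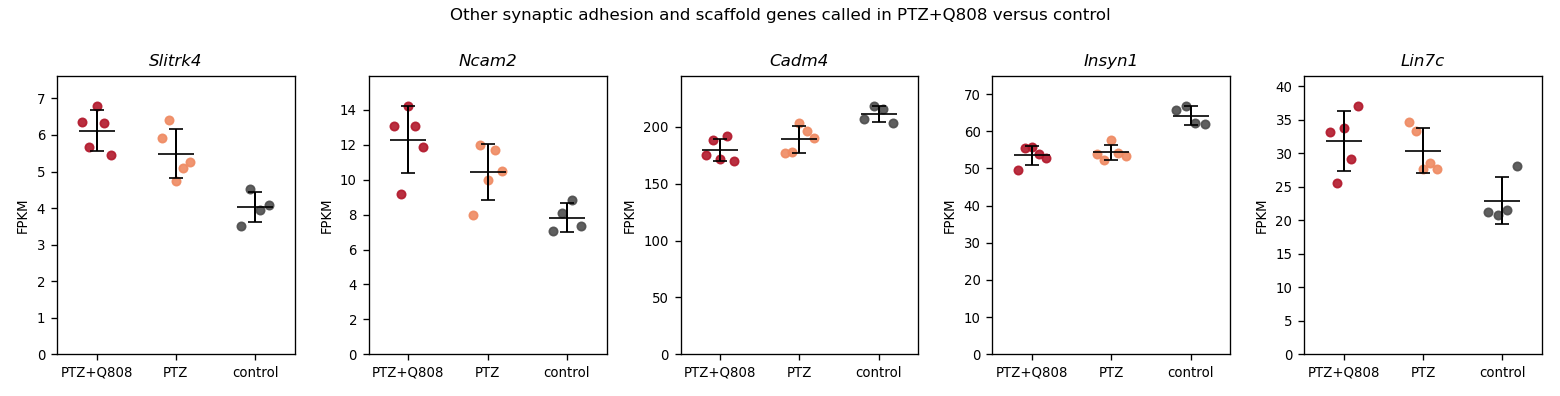
Level in FPKM (vertical axes from 0) of the 5 genes of the partner and scaffold lists that were called in PTZ+Q808 versus control, in PTZ+Q808, PTZ and control libraries; points are libraries, bars the group mean and SD. Slitrk4, Ncam2 and Lin7c are higher and Cadm4 and Insyn1 lower in PTZ+Q808 than in control, with overlap for Lin7c alone.

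The genes most like each of the 8 in pattern were taken by Pearson correlation of log2(FPKM + 1) over the 14 libraries, which share the same group differences, and are given as a description. For Nlgn1 they were Cacna2d1, a calcium channel subunit (r = 0.971, and 0.909 after group means were subtracted), Phf14 (r = 0.966) and Vps41 (r = 0.961). Lrrtm2 was followed most closely by Ranbp6 (r = 0.921), Dzip3 (r = 0.919) and Uba6 (r = 0.915). Lrrtm3 was followed by Ncam2 (r = 0.906, and 0.747 after group means were subtracted), Reps2 (r = 0.893) and Lrrc4c, the netrin-G ligand of the adhesion list (r = 0.890). The genes nearest to Nlgn2 were Pnmal2 (r = 0.948), Tshz2 and Chd5, and those nearest to Nlgn3 were Rusc2 (r = 0.965), Ube4b and Apc2. For Nrxn2 they were Rab3b (r = 0.922), Hcn3 and Tmem145, for Nrxn3 Cdk12 (r = 0.900), Ppm1l and Foxo3, and for Lrrtm4 Acot4 (r = 0.872) and Fam150b. The nearest genes are the highest of 12744, so that high values arise in part from the number searched.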

How the data were processed

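Hippocampal mRNA was captured on beads and sequenced (BGI T7), per the labels. The authors deposited FPKM per gene and library, and the submitters' processing notes name HISAT2 and Bowtie2, HTSeq, Cufflinks and StringTie, DESeq, Trimmomatic and SAMtools without roles or versions. The genome build was not given in the sources used here. Whole fragments were recovered from the FPKM values for 100% of 18961 genes with a positive value (tolerance 0.02 of a fragment), which gave library totals of 15332472 to 18544147 fragments. Errors from these totals cover counting error only.

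The 12744 genes that reached 1 FPKM in 4 or more libraries were tested on log2(FPKM + 1) with limma 3.58.1 (R 4.3.3). The 3 groups were in 1 fit with a mean-dependent prior variance and 11 residual degrees of freedom. The threshold for a call was a two-sided p under 0.05 after Benjamini-Hochberg adjustment across these genes. The pseudocount of 1 shrinks changes of low genes. Nothing in the labels beyond the design text ties libraries to animals, so p-values measure the spread between these libraries.

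The genes described, the partner lists and the marker lists were chosen with earlier results of these data known. All 9 genes of the set were to be named, and from each partner list the called genes (up to 6) or, with none called, the 2 with the smallest p. The 3 genes most correlated with each of the 8 were named, leaving out placeholder symbols. Some genes that met these rules are not reported here. Alternatives covered the pseudocount, filters, scalings, fits, a replicate block and leaving out each library. Others were chosen after seeing the data: voom on recovered fragments (387 genes called in PTZ+Q808 versus control, against 366), a term for Y-linked transcripts, and fits without libraries that stood apart. The fit was tested on simulated data. Figures were drawn with matplotlib 3.10.9.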

Additional observations from a re-analysis of the deposited data

Results flagged for a closer look

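Dixon's criterion was applied to the 8 genes in each of the 3 groups, and 3 of 24 combinations passed it, where chance gives about 1 in 20. All 3 were in PTZ+Q808. Nrxn2 was at 61.1 FPKM in PTZ+Q808 replicate 3, above the other libraries of that group, which is the library that held pituitary transcripts. In PTZ+Q808 replicate 2, Nrxn3 was at 12.8 FPKM and Lrrtm2 at 11.6 FPKM, each below the other libraries of that group. Without that replicate the Lrrtm2 difference between PTZ+Q808 and control was 0.44, with an adjusted p of 0.0553 in limma.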

How the results depend on the processing

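For the log2 differences of the 8 genes in 3 comparisons, 24 values were recomputed under 720 alternatives. Of these, 683 kept their direction and their side of the threshold, 16 lost the call and 16 turned sign. In 5 the p was under the threshold where that of the reported fit was not: in 4 of them it was the unadjusted exact permutation p, and 1 was a call, that of Lrrtm2 in PTZ+Q808 versus control with weights per library. The lost calls were those of Nlgn1 and Lrrtm3 in PTZ+Q808 versus control. With the replicate block their adjusted p was 0.0705 and 0.0622. The numbers did not pair the libraries (mean correlation of deviations -0.036 over 13 same-number pairs), and with the replicate block 0 of the 8 genes were called in PTZ+Q808 versus control, and 4 and 0 genes of the whole table in PTZ+Q808 versus control and PTZ versus control. The number of the 8 called in PTZ+Q808 versus control was 2 as reported, 0 without the 3 libraries low in Ttr, 0 without the 2 libraries with striatal or pituitary transcripts, and 0 to 2 when leaving out each library in turn. Fewer libraries also leave fewer degrees of freedom.

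Sign changes were all near 0. For Nrxn2 in PTZ versus control the log2 difference was 0.0020 at an equal total, 0.0088 with the replicate block, 0.0015 with a Y-linked term, 0.0599 without the libraries low in Ttr, and -0.0576 to 0.0472 leaving out each library. In PTZ+Q808 versus PTZ it was -0.0012 at an equal total, -0.0135 without the libraries with striatal or pituitary transcripts, and -0.0224 to 0.0448 leaving out each library. In PTZ+Q808 versus control it was -0.0062 with quantile normalization, -0.0711 without those libraries, and -0.0402 to 0.0647 leaving out each library. Nlgn3 in PTZ versus control was -0.0691 to 0.0093 leaving out each library.

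Over all genes, PTZ+Q808 versus control had 366 calls as reported, 980 at adjusted p under 0.1, 190 with no filter, 199 with 2 groups only, 1100 with weights per library, 564 with a Y-linked term, 0 without the libraries low in Ttr, 57 without those with striatal or pituitary transcripts, and 17 to 673 leaving out each library. PTZ versus control had 4 calls as reported, 1 with no filter, 0 with 2 groups only, 7 with weights per library, 1 with voom at either scaling, 8 with a Y-linked term and 1 to 5 leaving out each library. PTZ+Q808 versus PTZ had 0 calls as reported and 2 with no filter. The cause of these shifts was not tested. The spread within groups was above counting error in 24 of 24 combinations of gene and group, by 1.45 to 8.36 times.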
